A study of Mus musculus with 45 samples.

Results

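Albumin, alpha-fetoprotein, transthyretin, the fetuins and the inter-alpha inhibitor proteins are made in the liver and secreted into the blood plasma. Their 10 genes, Alb, Afp, Ttr, Ahsg, Fetub, Ambp, Itih1, Itih2, Itih3 and Itih4, were taken by name, out of 21631 protein-coding genes of the RefSeq annotation of the mouse. For each gene, every REV-ERBα peak was collected whose summit lay inside the gene span or within 50 kb of it. At zeitgeber time 10 (ZT10, hour 10 of the light-dark cycle, in the later part of the light phase) this gave 41 distinct peaks out of 27929. At ZT22, late in the dark phase, it gave 0 out of 36.

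The series holds 45 chromatin immunoprecipitation sequencing (ChIP-seq) samples of mouse liver, and the 2 peak lists used here come from 8 of them. Both groups were livers of REV-ERBa3HA/3HA mice, in which both copies of the REV-ERBα gene carry a 3HA epitope tag, with no AAV vector given. Liver nuclei were fixed with formaldehyde and EGS, and chromatin bound by the tagged protein was pulled down with anti-HA magnetic beads. There were 4 samples at ZT10 and 4 at ZT22, and the authors pooled those of a time before making its list. The mice's age and sex are not given in the sources used here. Histone mark, NCOR1, input, untagged B6-WT and AAV samples were not analysed here, and no RNA was measured.

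Each list gives a start, an end, a summit and a fold enrichment per peak, the authors' own ratio of the signal at the summit to the local background. Each time has 1 pooled list, so no value has a spread over mice and no test between groups was possible. Intervals below are exact 95% Poisson intervals of the fragments counted at the summit, and they cover counting error only. In the ZT10 list the median fold was 6.81, the median width 1679 bp and the median summit 149 fragments. Its lowest fold was 4.01. The authors' peak numbers have gaps and run above 27929 (36146 near Afp), so some numbered peaks are absent from the list. Statements below that no peak was found refer to listed peaks only. Peaks were made from whole liver nuclei, so strong binding in few cells and weaker binding in many cannot be told apart. Of all protein-coding genes, 70.5% had a ZT10 summit within 50 kb. Among marker genes, 8 of 8 for hepatocytes had one (Alb, Ttr and Ahsg are among them). So did 2 of 8 for Kupffer cells, 5 of 8 for endothelial cells, 3 of 7 for stellate cells and 3 of 6 for cholangiocytes. A fold of 20 or more was reached by 3 hepatocyte, 1 endothelial, 1 cholangiocyte, 0 Kupffer and 0 stellate markers (8.98% of all genes). The cell types bound were not tested.

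REV-ERBα is a nuclear receptor of the circadian clock that represses transcription by bringing the NCOR1-HDAC3 corepressor complex to DNA. It binds the hexamer AGGTCA, alone with an A/T-rich flank (the RORE) or as a repeat, and it can also be held at sites by other liver transcription factors such as HNF6. Albumin carries fatty acids, hormones and drugs, and alpha-fetoprotein is its fetal relative, silenced in the liver after birth. Transthyretin carries thyroid hormone and, with its partner RBP4, retinol. Fetuin-A inhibits the deposition of calcium phosphate, and fetuin-B inhibits ovastacin, a protease of the egg. Ambp encodes 1 precursor that is cleaved into alpha-1-microglobulin, which binds heme, and bikunin, a protease inhibitor. Bikunin is linked through a chondroitin sulfate chain to heavy chains from Itih1, Itih2 and Itih3, and the complex can pass its heavy chains to hyaluronan in the extracellular matrix.

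The 250 bases before the start of a gene are shown for 6 of the 10. They span the range of the data: the strongest of these starts (Itih2), the start under the widest peak (Ahsg), a start with a moderate peak (Itih4), the start of albumin with a peak near the median of the list, the start of alpha-fetoprotein with no peak over it, and the start of Ambp under a peak centred farther upstream. Sequences come from RefSeq (GRCm38.p6, the coordinates of mm10) and run 5′ to 3′ on the gene's own strand, ending at the base before the start. Capitals mark every match to the 9 motifs searched, which are named after the sequences. The windows are chr5:90460620-90460869 (plus strand) for Alb, chr5:90490464-90490713 (plus) for Afp, chr16:22891765-22892014 (plus) for Ahsg, chr14:30886226-30886475 (plus) for Itih4, chr2:10130684-10130933 (minus) for Itih2 and chr4:63154173-63154422 (minus) for Ambp.
Alb: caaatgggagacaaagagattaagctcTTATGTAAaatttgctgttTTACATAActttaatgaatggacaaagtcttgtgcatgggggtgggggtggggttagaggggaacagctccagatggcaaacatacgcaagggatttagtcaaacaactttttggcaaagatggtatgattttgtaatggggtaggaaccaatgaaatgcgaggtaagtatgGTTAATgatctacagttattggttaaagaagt
Afp: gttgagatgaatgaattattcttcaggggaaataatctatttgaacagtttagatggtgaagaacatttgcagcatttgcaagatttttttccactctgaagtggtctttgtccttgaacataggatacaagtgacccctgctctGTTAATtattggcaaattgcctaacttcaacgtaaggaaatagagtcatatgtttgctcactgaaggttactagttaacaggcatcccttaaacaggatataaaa
Ahsg: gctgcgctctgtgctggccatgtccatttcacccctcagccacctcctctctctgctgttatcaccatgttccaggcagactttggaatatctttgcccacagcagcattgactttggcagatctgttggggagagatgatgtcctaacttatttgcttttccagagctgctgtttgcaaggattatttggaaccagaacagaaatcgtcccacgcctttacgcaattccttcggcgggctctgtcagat
Itih4: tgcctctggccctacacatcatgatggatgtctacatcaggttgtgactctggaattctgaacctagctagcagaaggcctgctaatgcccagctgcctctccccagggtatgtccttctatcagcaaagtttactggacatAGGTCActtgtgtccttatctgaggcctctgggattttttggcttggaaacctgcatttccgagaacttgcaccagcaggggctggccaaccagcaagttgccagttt
Itih2: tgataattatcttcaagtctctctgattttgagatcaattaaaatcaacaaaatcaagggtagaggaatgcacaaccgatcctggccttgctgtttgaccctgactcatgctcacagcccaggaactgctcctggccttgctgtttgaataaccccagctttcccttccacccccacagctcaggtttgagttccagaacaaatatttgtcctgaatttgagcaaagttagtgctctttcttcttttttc
Ambp: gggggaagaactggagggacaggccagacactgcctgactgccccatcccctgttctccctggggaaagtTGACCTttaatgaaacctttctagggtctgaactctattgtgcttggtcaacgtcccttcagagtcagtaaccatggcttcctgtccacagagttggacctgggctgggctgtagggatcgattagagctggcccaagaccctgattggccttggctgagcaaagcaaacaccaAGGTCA

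Matches were sought on both strands in 21045 such windows of all genes, 10 of them from 9 of the 10 genes (Fetub has 2 starts). The REV-ERB hexamer AGGTCA was in 12.8% of all windows and in 2 of the 10, those of Itih4 (bases 108 to 103 before the start, on the gene's strand) and Ambp (bases 180 to 175 on the other strand and bases 6 to 1 on its own). None of these matches has the flank of the RORE, ANTAGGTCA, which was in 0.447% of all windows and in 0 of the 10. The repeats RevDR2 and DR1, which contain the hexamer, were in 0% and 0.0428% of all windows and in 0 of the 10. So the windows of Itih2 and Ahsg, under peaks of fold 28.5 and 16.0, hold none of these exact letters, a statement about 250 bases only. The Itih2 summit lies 21 bp past the start, outside its window, and bases after the starts were not searched.

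Motifs of other liver factors were in some of the windows. The D-box TTATGTAA, bound by the clock output factors DBP, TEF and HLF and by their repressor NFIL3, was in 0.803% of all windows. Among the 10 it was in that of Alb alone, with a match at bases 223 to 216 and another, on the other strand, at bases 204 to 197. The letters GTTAAT, the core of the site of the hepatocyte factor HNF1, were in 5.85% of all windows and in those of Alb (bases 32 to 27), Afp (105 to 100) and Itih1 (27 to 22). The FOXA motif TGTTTAC (2.64%) was in the window of the downstream start of Fetub, and the CEBP motif TTGCGCAA (0.2%) and the E-box CACGTG (6.7%) were in 0 of the 10. A match describes exact letters and was not tested as a binding site, and sites that differ from these letters were not sought.

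All 10 genes had a ZT10 summit within 50 kb, where 70.5% of all protein-coding genes did. With a reach of 10 kb 10 had one (54.5% of all genes), with 2 kb 8 had one (47.1%), all but Afp and Ambp, and inside the span 5 had one (36.2%), which are Ttr, Fetub, Itih2, Itih3 and Itih4. They had 65 pairings of gene and summit over the 41 peaks, because 18 peaks were in reach of more than 1 of the genes. The number of sites per gene ran from 2 at Ambp to 10 at Alb with a median of 6.5, against 2 for all genes. Per 100 kb of window it ran from 1.80 (Ambp) to 8.64 (Alb) with a median of 5.35, against 1.60 for all genes. Strongest folds had a median of 21.5, against 10.02 over all genes with a summit. A peak of fold 10 or more was in reach of 9 (35.3% of all genes), all but Afp. A peak of fold 20 or more was in reach of Alb, Itih1, Itih2, Itih3 and Itih4, which is 5 of the 10, where 8.98% of all genes reached it. Genes near each other share peaks, so these counts are not independent, and the thresholds of fold and width used here were chosen after values were seen.

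**Figure D1:**
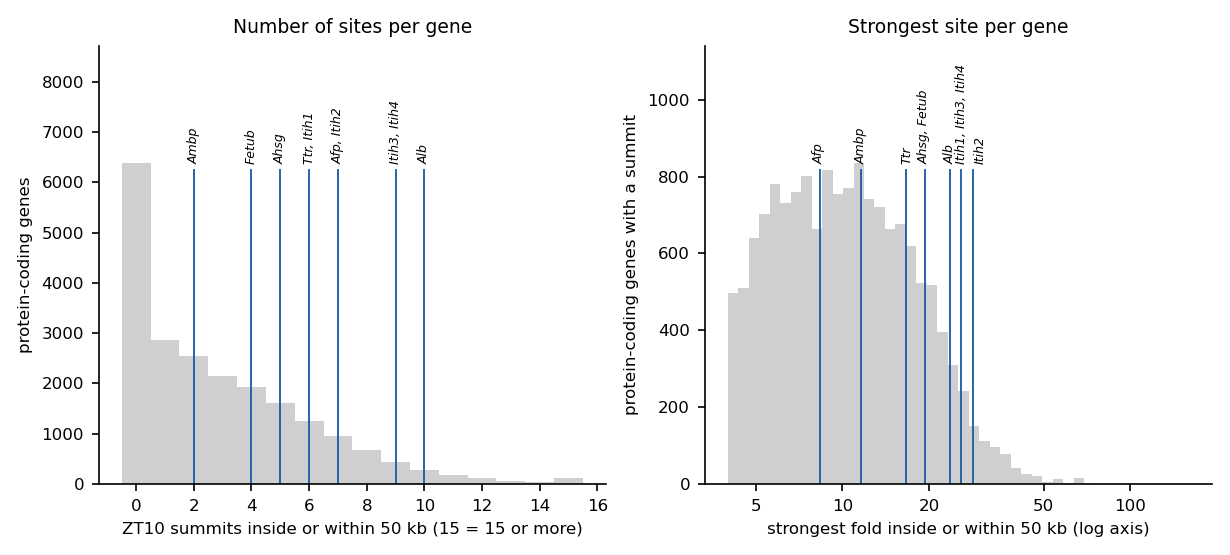
Left, number of ZT10 summits inside a gene or within 50 kb (x axis) for all 21631 protein-coding genes (grey bars, y axis: genes). Right, the strongest fold in the same reach (log x axis) for genes with a summit. Blue lines mark the 10 genes: Ambp sits among the bulk of genes on the left with 2 sites, Alb far right with 10, and on the right Afp (8.34) lies below and Itih2 (28.5) well above the median of 10.02.

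The 41 peaks had folds from 4.01 to 28.5 with a median of 9.15, and 30 of them (73.2%) were above the median of all ZT10 peaks. A fold of 10 or more was reached by 19 of 41, against 27% of all ZT10 peaks, and a fold of 20 or more by 3, against 4.72%. Summits held 83 to 617 fragments with a median of 196. The local background was above its lowest value at 6 of the 41 (12.8% of all ZT10 peaks), where it was 4.4 to 6 instead of 4.14. Of the 41 summits, 7 lay inside the span of one of the 10 genes. The windows reach 50 kb beyond each span, and the share of all ZT10 summits inside a gene was not computed.

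Albumin had the most sites of the 10 genes, and most were upstream of it. Alb lies on chromosome 5 from 90460870 to 90476602, on the plus strand. Its strongest peak was the most distant one upstream, with a fold of 23.7 (21.7 to 25.8, 512 fragments) at 46.3 kb before the start, outside any protein-coding gene. It ranked 669 of the ZT10 list by fold. The gene span nearest its summit was that of Ankrd17, at 45862 bp, slightly closer than Alb at 46315 bp. Going toward Alb, folds were 9.20 at 35.5 kb, 7.18 at 29.7 kb, 10.4 at 21.4 kb, 8.34 at 12.9 kb and 6.35 at 3.42 kb before the start. The summit 122 bp before the start of Alb had a fold of 7.27 (6.20 to 8.48, 154 fragments), near the median of the whole list. Its interval lies wholly below that of the distal peak, so the strongest peak in reach of Alb was not at its start, beyond counting error. With each summit given to its nearest gene only, the strongest of Alb was the one of fold 10.4. No listed summit lay inside the gene, and the next was 841 bp past its end, with a fold of 5.48. Peak numbers skip from 36129 at the start to 36138 past the end, so peaks left out of the list may lie between.

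Afp, the neighbour of Alb on the same strand (90490714 to 90508907), had 7 sites but a lower strongest fold than any other of the 10 genes. That peak, with a fold of 8.34 (7.34 to 9.44, 243 fragments), lies 42.8 kb before its start and is also the peak 12.9 kb before Alb. The summit nearest the Afp start was 4.96 kb before it, in the stretch between both genes, with a fold of 7.82 (6.70 to 9.07). No listed peak overlapped the Afp span at any point, though peak numbers skip from 36140 to 36144 across it. Of the 11 peaks of the locus, 6 were in reach of both genes, with folds of 5.48 to 8.34. The 4 distal peaks upstream of Alb, the one of fold 23.7 among them, lay beyond 50 kb from Afp, the nearest at 51246 bp with a fold of 10.4. The 2 peaks farthest downstream, each with a fold of 6.95, lay in Afm, the gene of the related vitamin E carrier afamin, and one of them was 147 bp from its start. Outside the distal peak, the 10 folds of the locus ran from 5.48 to 10.4, and the median gap between summits was 8.99 kb.

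Ttr, on chromosome 18 from 20664209 to 20674326, had 6 sites over and to one side of the gene. A peak of fold 16.7 (15.1 to 18.5, 378 fragments) lay 22.4 kb from the lower-coordinate end of the gene, and one of fold 15.8 (14.2 to 17.5, 339 fragments) lay 554 bp from that end. Their intervals overlap, and the difference was not tested. Between them were peaks of fold 7.36 at 15.5 kb and 7.77 at 9.24 kb. Inside the gene were peaks of fold 5.02 and, 92 bp from the other end, 5.39. Peaks covered 76.5% of the Ttr span, and the one nearest the lower-coordinate end was 9557 bp wide. B4galt6, a galactosyltransferase gene on the far side, shared all 6 peaks within its own 50 kb.

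The fetuin genes lie side by side on chromosome 16, Ahsg (fetuin-A) from 22892015 to 22899451 and Fetub (fetuin-B) from 22918382 to 22939768, both on the plus strand. Each had a strong peak at a start. The summit 53 bp before the Ahsg start had a fold of 16.0 (14.5 to 17.6, 403 fragments). The summit at Fetub was 35 bp after the downstream of its 2 RefSeq starts, with a fold of 19.3 (17.5 to 21.2, 416 fragments). The intervals just overlap, and the difference was not tested. Fragments were close, while the local background was 5 at the Ahsg peak and 4.14 at the Fetub peak. The upstream start of Fetub had no peak over its 250 bases.

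The fetuin-A peak was among the widest of the whole list. It ran from 22876407 to 22902583, 26177 bp, and was the third widest of the 27929 peaks of the list, the widest being 28442 bp. It covered 100% of the Ahsg gene and most of it lay upstream of the gene. The Fetub peak was 4227 bp wide and covered 19.8% of its gene. Peaks covered 27.6% of the window around the fetuins, the largest share of the 6 loci of these genes, against 2.45% of the genome. Of 6 peaks, 3 were in reach of both genes, of fold 16.0, 19.3 and 10.2.

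Other genes near the fetuins had peaks at their starts, weaker within the 50 kb reach and stronger beyond it. Hrg encodes histidine-rich glycoprotein, a plasma protein of the same cystatin family, and had a summit 7 bp from its start with a fold of 10.2. Dnajb11, which encodes a chaperone of the endoplasmic reticulum, and Tbccd1 lie back to back, and a peak of fold 5.88 was 153 bp from the Dnajb11 start. Beyond the 50 kb reach, Kng2, a kininogen gene, had a summit 126 bp from a start with a fold of 22.2.

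Ambp, which encodes bikunin and alpha-1-microglobulin, had the fewest sites of the 10 genes. It lies on chromosome 4 from 63143275 to 63154172, on the minus strand. A peak centred 2990 bp before its start had a fold of 10.8 (9.60 to 12.2) and 271 fragments, and one 32.5 kb before the start had a fold of 11.6 (10.3 to 13.1) and 249 fragments. The intervals overlap, and the order turns between fold and fragments because the local background was 5 at the nearer peak and 4.14 at the other. The nearer peak was 8474 bp wide, covered 31.9% of the Ambp span and ran over its start, while its summit was 786 bp from Kif12, a kinesin gene. Both peaks were above the median fold of the list, and 2 sites is the median number over all genes.

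The heavy chain genes held the strongest peaks. Itih2 lies apart from the other heavy chain genes, on chromosome 2 from 10094591 to 10130683 on the minus strand. The summit 21 bp inside its start had a fold of 28.5 (26.3 to 30.9, 617 fragments), ranked 302 of the ZT10 list, and the peak was 10990 bp wide. The next sites were far weaker, with folds of 7.41 at 6.85 kb and 9.15 at 10.02 kb before the start and 6.72 at the opposite end of the gene, 89 bp from that end. The other 3 peaks in reach lay at the starts of other genes and had folds of 4.01 (Taf3, 499 bp), 4.46 (Atp5c1, 77 bp, and Kin, 257 bp) and 4.24 (Itih5, 104 bp). Itih5 is the heavy chain gene next to Itih2, so the start of one heavy chain gene had the strongest peak of the 41 and the start of its neighbour one of the 3 weakest.

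Itih1, Itih3 and Itih4 form a cluster on chromosome 14. Itih4 encodes a heavy chain relative cut by plasma kallikrein. Itih4 (30886476 to 30901986) is on the plus strand, and Itih3 (30908572 to 30923787) and Itih1 (30929180 to 30943289) are on the minus strand. Each had a peak at or near its own start. At Itih1 the summit was 1188 bp before the start, with a fold of 25.9 (23.8 to 28.1, 560 fragments, rank 474) and a width of 6307 bp. At Itih3 the summit was 231 bp inside the annotated start, with a fold of 14.7 (13.1 to 16.4, 315 fragments). At Itih4 it was 25 bp inside the start, with a fold of 10.9 (9.57 to 12.4, 233 fragments). These 3 intervals do not overlap, so the order Itih1, Itih3, Itih4 is larger than counting error.

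Outside the starts, the cluster had peaks on both flanks. Upstream of Itih4, inside Stimate, folds were 11.8 at 24.7 kb, 17.5 (15.8 to 19.4) at 17.04 kb and 11.8 at 10.9 kb before its start. A peak of fold 10.7 lay between Itih4 and Itih3, 632 bp beyond the end of Itih3. Upstream of Itih1, a peak of fold 4.70 was 5.80 kb and one of 15.6 (13.98 to 17.3) was 6.86 kb before its start, the latter 1228 bp from Nek4, a kinase gene. So 8 of the 9 peaks of the cluster had a fold of 10 or more, beside 2 of 2 at Ambp, 4 of 6 at the fetuins, 2 of 6 at Ttr, 2 of 11 at the albumin locus and 1 of 7 around Itih2, and 27% of all ZT10 peaks. The median gap between summits was 9.26 kb, close to that of the albumin locus.

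All 9 peaks of the Itih cluster were in reach of at least 2 of its genes, and 6 were in reach of all 3. The other 3, those inside Stimate, were in reach of Itih3 and Itih4. Itih3 and Itih4 therefore had the same 9 sites and the same summed fold of 123.5, against 82.5 for Itih1 with 6 sites and a median of 14.1 over all genes. With a reach of 10 kb only 2 peaks of the cluster were shared, and with 2 kb 0 were. At the albumin locus the 6 shared peaks fell to 1 and 0. Genes of a cluster lie closer together than the reach of 50 kb, and a shared peak is assigned to no target gene.

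**Figure D2:**
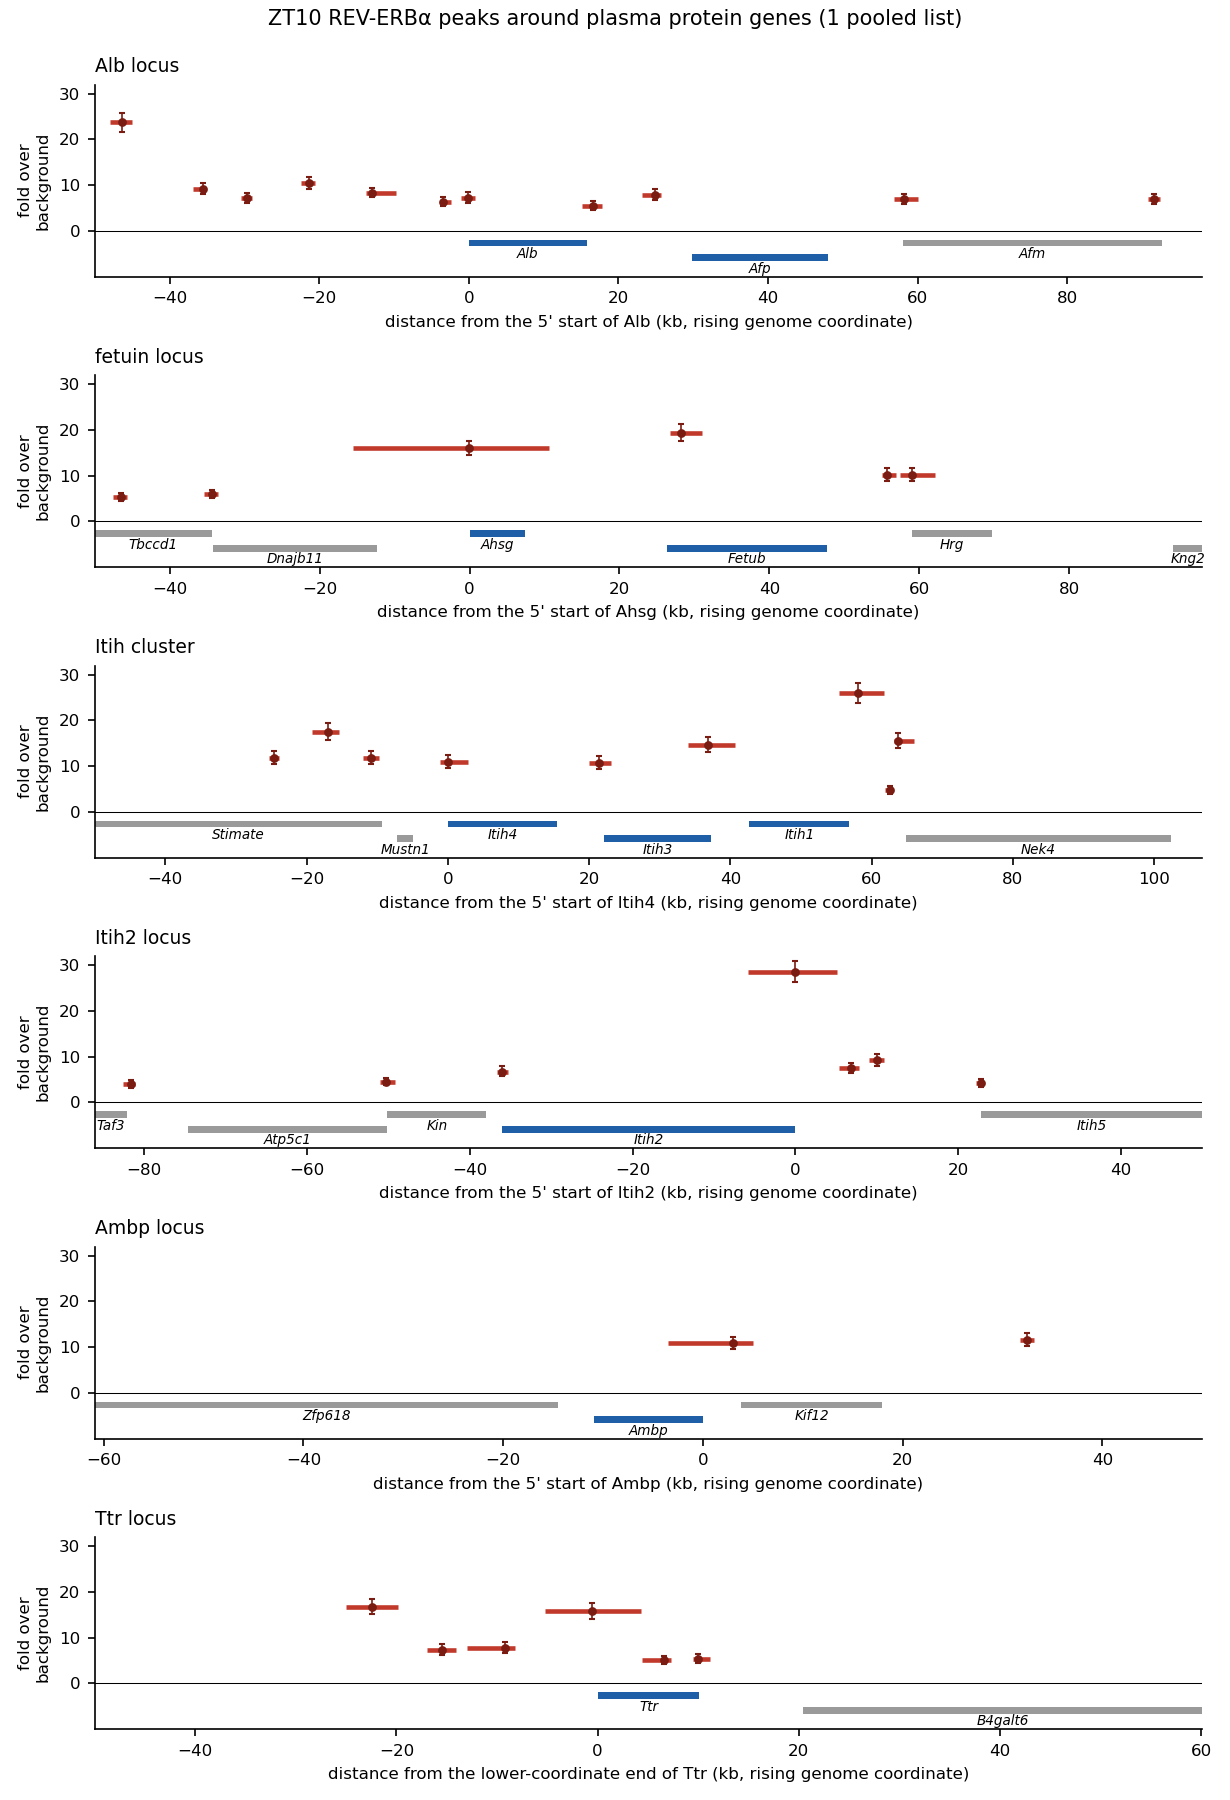
Each panel plots the ZT10 peaks of a locus by distance in kb (x axis) and fold over background (y axis). Red bars span the peak, dots mark the summit with its 95% counting interval, and boxes below show the 10 genes (blue) and neighbours (grey). The albumin locus has its one strong peak 46.3 kb upstream, the fetuin-A peak covers its whole gene, the Itih cluster has 8 of 9 peaks at fold 10 or more, and Itih2 has a single peak of fold 28.5 over its start.

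By strongest fold the genes ran Itih2 (28.5), then Itih1, Itih3 and Itih4 with the same peak (25.9), Alb (23.7), Ahsg and Fetub with the same peak (19.3), Ttr (16.7), Ambp (11.6) and Afp (8.34). Neighbours in this order had overlapping intervals from Itih2 down to Alb and between the fetuins and Ttr. They did not overlap between Alb and the fetuins, between Ttr and Ambp, or between Ambp and Afp. Fragments were close in the last pair, 249 at Ambp and 243 at Afp, while the local background was 4.14 and 6. The intervals take the local background as fixed, so the order of Ambp and Afp was not shown to be beyond counting error. With the sites nearest the starts the order differed. Itih2 and Itih1 stayed first and Fetub (19.3) and Ahsg (16.0) followed, while Alb, at 7.27, came below Itih3, Itih4, Ambp and Afp. The interval of the Alb start peak overlaps that of the Afp site, which lay 4955 bp before the Afp start.

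**Figure D3:**
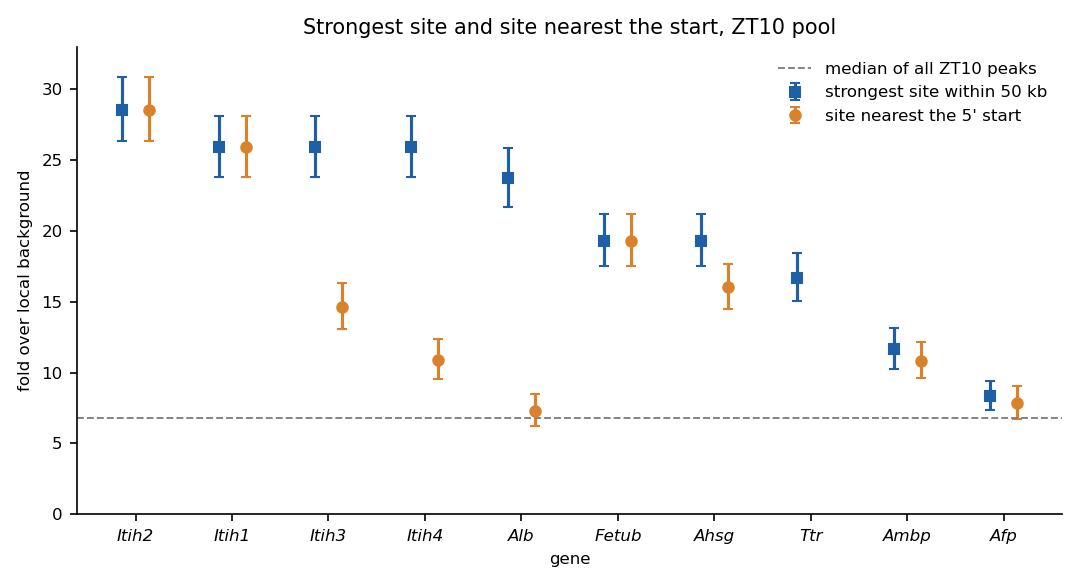
Fold over local background (y axis) of each gene's strongest ZT10 site within 50 kb (blue squares) and of the site nearest its RefSeq start (orange circles), with 95% counting intervals; no start was used for Ttr. The 2 values are the same at Itih2, Itih1 and Fetub, and at Alb they fall from 23.7 to 7.27, close to the dashed line at the median of all ZT10 peaks (6.81).

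A summit within 1 kb of a RefSeq start was found for 6 of the 9 genes with a start, where 34.5% of genes in the start table had one. The 6 were Alb, Ahsg, Fetub, Itih2, Itih3 and Itih4. Itih1, Ambp and Afp had their nearest summits at 1188, 2990 and 4955 bp. Folds at the 6 starts ran from 7.27 to 28.5 with a median of 15.3. A further 6 of the 41 peaks lay within 1 kb of the start of another gene, where folds ran from 4.01 to 10.2 with a median of 5.17. Together these are 12 of the 35 peaks on chromosomes in the start table, which leaves out the 6 at Ttr, and 20.7% of the ZT10 peaks on those chromosomes lay as close to a start. The other 23 of the 35 had a median of 9.20. Except for Alb, each of these genes with a start peak had a higher fold there than every one of the 6 peaks at other genes' starts, though the intervals of Itih4 and Hrg overlap. This depends on the limits: the summit of fold 22.2 at a Kng2 start lay beyond the 50 kb reach. Summits just past 1 kb were those of fold 15.6 at Nek4 (1228 bp) and of 25.9 at Itih1 (1188 bp).

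The 41 included some of the widest peaks of the list. The median width was 2553 bp, and 4 were 8 kb or wider, where 2.58% of all ZT10 peaks were. These 4 were the peaks at Ahsg (26177 bp), Itih2 (10990 bp), Ttr (9557 bp) and Ambp (8474 bp), and each overlapped the gene it is named for. In that order of width their folds were 16.0, 28.5, 15.8 and 10.8, so the widest was not the strongest.

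**Figure D4:**
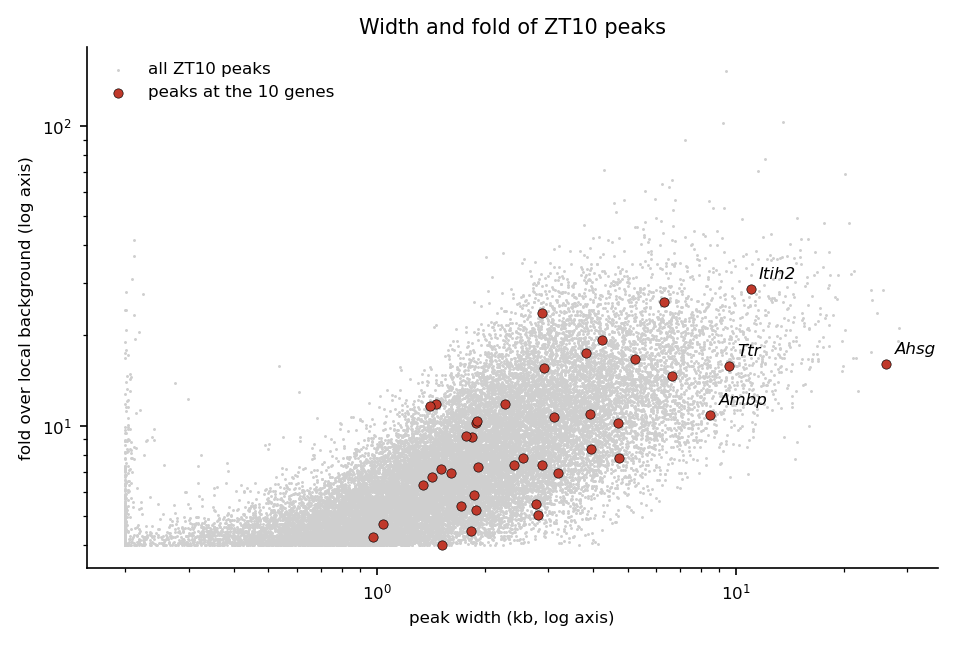
Width in kb (log x axis) against fold over local background (log y axis) of all 27929 ZT10 peaks (grey) and the 41 at the 10 genes (red). The labelled points are the 4 peaks of 8 kb or more, with Ahsg among the widest of the list.

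At ZT22 none of the 10 genes had a summit within 50 kb, and 0.157% of all protein-coding genes did. The nearest ZT22 peak was 11.2 Mb from the Itih cluster, 15.3 Mb from Afp and 42.6 Mb from Ttr, and chromosome 2, with Itih2, had none. Of the 41 ZT10 peaks, 0 were overlapped by a ZT22 peak, against 0.0859% of all ZT10 peaks (24 of 27929) and 0.687% of those with a fold of 15 or more (21 of 3058). These shares are so low that 0 of 41 cannot be told apart from them. The ZT22 list has no fold below 4.08, so weaker ZT22 signal at these genes was not measured here.

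The values were set beside those of other secreted plasma proteins. Of 23 further carriers and inhibitors, 23 had a ZT10 summit within 50 kb (70.5% of all genes) and 11 had one of fold 20 or more (8.98% of all genes), with a median strongest fold of 19.6 (10.02 over all genes with a summit). The 3 strongest were at Mug1 (30.6), a protease inhibitor of the macroglobulin family, Itih5 (28.5, which is the start peak of Itih2) and Serpina6 (27.1), which encodes the carrier of corticosteroids. Within 10 kb their strongest folds were 16.2, 4.24 and 27.1, and 22 of the 23 had a summit (54.5% of all genes). The counts are not independent: the strongest peak of Hrg (19.3) is that of Fetub, and Kng1 and Kng2 have the same strongest fold (22.2). Genes of the secretory machinery had a median strongest fold close to that of all genes with a summit. A fold of 10 or more was reached by 12 of these 20 genes, where 35.3% of all genes reached it. Of 20 genes for translocation, folding, N-glycosylation and export from the endoplasmic reticulum, 19 had a summit, all but Ssr4, 0 reached a fold of 20, and the median strongest fold was 10.4, beside the same 70.5%, 8.98% and 10.02 over all genes. The 3 strongest there were Mcfd2 (16.2), a cargo receptor subunit, Ssr1 (14.7), a translocon subunit, and Sec24d (14.1), a coat protein of export vesicles. No test compared the lists.

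Genes elsewhere with a like pattern were named by the distance over strongest fold, number of sites and summed fold, on z-scored log2 scales, among 15121 genes with a summit and over 1 Mb from the 10. For Alb this was Synrg (10 sites, strongest 23.5, summed fold 91.6, against 92.7 for Alb). For Ttr it was Clmn (6 sites, 16.7 and 58.2), the closest match of any, at a distance of 0.00407. Itih3 and Itih4 had the most distant match, St3gal1 (9 sites, 26.3 and 116.6), at 0.068. The others were Gm11634 for Afp, Ankrd52 for Ahsg, Lpin1 for Fetub, Khdc1c for Ambp, Hr for Itih1 and Entpd8 for Itih2. Likeness was taken over 1 list, and it says nothing of the function of these genes.

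At the edge of the reach, the summits just inside were those of fold 10.2 at 48265 bp from Ahsg and of 15.6 at 48163 bp from Itih4. Of the closest summit outside for each gene, the 4 nearest the edge were those of fold 10.4 at 51246 bp from Afp, 10.2 at 51614 bp from Ahsg, 11.8 at 53577 bp from Itih1 and 18.8 at 54344 bp from Ttr.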

How the data were processed

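Per the submitters' processing notes, which give no roles, the tools were MACS2 2.1.2, BWA 0.7.17, SAMtools 1.9, Picard 2.18.12, cutadapt 2.3, deepTools 3.3.0 and bcl2fastq 2.17, with the build mm10. The sources used here name neither the control library nor whether the samples of a time were separate mice. Per the labels, the authors made 1 list from the 4 pooled samples of each time. They deposited per peak a fold (a ratio over local background), a −log10 p and a −log10 q. The score column of the deposited lists was not used.

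From each peak's fold and −log10 p the number of fragments at its summit was worked out (pseudocount 1, Poisson upper tail). They came within 0.1 of a whole number for 99.7% of ZT10 peaks, 94.4% of ZT22 peaks and 41 of 41 peaks reported, and the solver was tested on simulated data. Library totals are not in the lists. Gene spans came from a RefSeq table (GRCm38.p6) and starts and strands from RefSeq promoter sequences (17274 genes, 9 of the 10). Python 3.11.15, pandas 2.3.3, NumPy 2.4.6, SciPy 1.17.1 and matplotlib 3.10.9 were used.

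The genes and lists were chosen with earlier results of these data known. The naming rule takes the 10 genes, neighbours that share a peak, the 3 strongest of each list, members of a list without a summit where 5 or fewer lack one, and the gene most like each of the 10. Tf was matched as Trf. Alternatives were other reaches, a stricter −log10 q, the nearest gene only, overlap of intervals, 1 row per interval, strength as −log10 q and a pseudocount of 0. With 1 list per time, no p-values were computed.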

Additional observations from a re-analysis of the deposited data

How the results depend on the processing

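No paired analysis was possible because each time has 1 list made from its pooled samples, and no sample could be left out for the same reason. The reach decided how many peaks were counted. The 41 peaks became 21 at 10 kb, 13 at 2 kb and 7 inside gene spans, and 24 when a summit went to its nearest gene only. Shared peaks fell to 1 (10 kb) and 0 (2 kb) at the albumin locus and to 2 and 0 in the Itih cluster, and sharing was not computed for gene spans or the nearest gene. The median fold was 10.9 at 2 kb and 10.9 inside spans, and 8.75 to 10.2 otherwise. Genes with a summit numbered 5 inside spans and 8 to 10 otherwise. At 10 kb the strongest fold became 7.82 for Alb, 16.0 for Ahsg, 14.7 for Itih3 and 10.9 for Itih4, and with the nearest gene only Ambp had no site. A −log10 q of at least 10 left 37 peaks and every gene's strongest one. Chosen after seeing the data, a reach of 50 kb from a start, for the 9 genes with one, left 32 peaks, and without peaks of higher local background 35 were left. Keeping 1 row per interval removed none, which says nothing of stability. ZT22 counts stayed at 0 at 10 kb and by overlap of intervals. With a pseudocount of 0, 16.8% (ZT10) and 25% (ZT22) of summits were whole. Depth limits each fold to the counting interval given, and binding below the lowest listed fold was not measured.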
